A study of Mus musculus with 12 samples.

Results

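The ISG15 conjugation system was followed in RNA from spleen natural killer (NK) cells through 5 genes taken by symbol from the 50643 listed: Isg15, Uba7, Ube2l6, Herc6 and Usp18. All 5 were among the 16694 genes with enough counts to be tested. The study compared wild-type C57BL/6 mice with C57BL/6 mice lacking Mirc11 (Mirc11-/-, here knockout, KO in the plots, with WT for wild-type), a cluster of microRNA genes (miR-23a, miR-27a and miR-24-2). Each genotype was examined unchallenged and after a challenge with Listeria, an intracellular bacterium, with 3 libraries in each of the 4 groups and 12 in all. In every group the NK cells had been isolated negatively, that is by depleting the other cells, and polyA RNA of the bulk preparation was sequenced. How much Listeria was given, by which route and for how long, the sex of the mice, and whether Mirc11 was absent from all tissues were not among the details given. The series calls its libraries biological replicates, but nothing states that each came from a separate mouse, so the p-values measure the spread between these libraries.

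ISG15 is a small ubiquitin-like protein made in response to interferon. It is attached to target proteins by a relay of enzymes: UBA7 activates it (the E1 step), UBE2L6 carries it (the E2 step) and HERC6, the main ISG15 ligase of the mouse, joins it to the target (the E3 step). USP18 removes it again, and apart from that enzyme activity USP18 dampens type I interferon signalling at the receptor subunit IFNAR2. ISG15 is also released from cells, and the free protein acts on NK cells and T cells through the integrin LFA-1, where it promotes secretion of interferon gamma.

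The microRNAs absent from the knockout have these mature sequences, shown because their seeds give the letters searched for in the 5 transcripts. They come from RefSeq (GRCm38.p6, plus strand), with the seed, bases 2 to 8, in capitals.
miR-23a-3p, chr8:84208563-84208583: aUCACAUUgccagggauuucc
miR-27a-3p, chr8:84208727-84208747: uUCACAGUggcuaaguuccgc
miR-24-3p, chr8:84208875-84208896: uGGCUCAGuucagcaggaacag
No seed is shared between them. The 7-base complement of each seed (AATGTGA for miR-23a-3p, ACTGTGA for miR-27a-3p and CTGAGCC for miR-24-3p) was searched in the longest annotated 3' UTR of every tested gene. In that order they occurred in 17.1%, 19.0% and 21.0% of 13543 such UTRs and 0 times in the UTRs of the 5 genes, which were 160 bases long for Isg15, 400 for Usp18, 1020 for Ube2l6, 1718 for Herc6 and 2608 for Uba7. The search says only that these letters are not in those UTRs.

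Promoter sequence from RefSeq (GRCm38.p6) was at hand for 4 of the 5 genes, as 250 bases before and 50 after the annotated start. The letters GAAANNGAAA, the core of the interferon-stimulated response element (ISRE) through which type I interferon acts on its target genes, were searched on both strands together with the shorter core AAANNGAAA, which lies inside it, and with TTCNNNGAA, the letters of the gamma-activated site (GAS). The Isg15 and Ube2l6 promoters are shown, since these genes stand at opposite ends of the motif search and were the members whose level without challenge differed between the genotypes. Both are printed 5' to 3' on the gene's own strand and end at the base before the start, with the ISRE cores in capitals.
Isg15 (chr4:156200819-156201068, minus strand): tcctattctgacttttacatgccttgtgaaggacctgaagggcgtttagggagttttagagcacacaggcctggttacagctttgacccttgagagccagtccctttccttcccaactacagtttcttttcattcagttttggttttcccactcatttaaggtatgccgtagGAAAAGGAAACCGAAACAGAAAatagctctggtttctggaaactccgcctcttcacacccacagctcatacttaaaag
Ube2l6 (chr2:84798578-84798827, plus strand): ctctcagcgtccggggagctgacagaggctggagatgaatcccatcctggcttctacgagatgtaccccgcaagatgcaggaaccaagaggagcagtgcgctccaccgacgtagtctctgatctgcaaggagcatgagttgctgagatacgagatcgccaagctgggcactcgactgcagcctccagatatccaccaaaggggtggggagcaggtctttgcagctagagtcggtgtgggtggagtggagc
The Isg15 promoter held 3 overlapping ISRE cores between 78 and 57 bases before the start, whereas the Ube2l6 and Herc6 promoters held none of the 3 motifs. The Uba7 promoter held 1 short core, TTTCACTTT, read on the opposite strand 27 to 19 bases before the RefSeq start. That start lies downstream of the GENCODE gene start given below, by which the match lies inside the gene. Among 32851 promoters of the same length, 3.44% held the ISRE core, 10.6% the short core and 8.3% the GAS letters. Of 36 other interferon-stimulated genes in the same table, 18 held the ISRE core, 24 the short core and 7 the GAS letters.

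By the GENCODE annotation of GRCm38, Isg15 spans chr4:156199424-156200818 on the minus strand, and the other members lie on the plus strand: Uba7 at chr9:107975505-107984060, Ube2l6 at chr2:84798828-84810335, Herc6 at chr6:57581000-57664632 and Usp18 at chr6:121245906-121270917. All are protein-coding. Herc6 shares its strand and part of its span with the noncoding transcript Gm45193, which had 542 counts over the 12 libraries, against at least 3098 Herc6 counts in every group. Gm20661 overlaps Uba7 (49 counts), and Gm44148, on the opposite strand, overlaps Usp18 (33 counts). The strand used in counting is not given, so reads of such pairs are separated only as the authors' counting did.

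The libraries held 17624530 to 23665679 counts, and levels are given as CPM, which scales each count to the total of its library. Mir23a, Mir27a and Mir24-2 had 0 counts in every library and check nothing. Gm26532, a noncoding RNA beside the locus, stood at 2.70 CPM in challenged knockout replicate 3, against that library's label, since challenged wild-type libraries read 2.34 to 4.27 CPM. Challenged knockout replicates 1 and 2 read 0.887 and 0.984 CPM, above the 0.113 to 0.498 CPM of unchallenged knockout libraries. The female transcript Xist was at most 1.08 CPM in unchallenged knockout libraries and at least 526 CPM in all others, and the Y-linked Ddx3y stood at 34.6 CPM in unchallenged wild-type replicate 4 and at 44.1 to 80.5 CPM in challenged knockout libraries. In challenged wild-type libraries Ddx3y was at most 0.133 CPM. These transcripts therefore differ along with genotype in both treatments and with challenge within the knockout, and sex cannot be told apart from genotype or challenge in those comparisons or in the difference of responses. Xist and Ddx3y were both present in unchallenged wild-type replicate 4 and in the challenged knockout libraries, and whether these held mixed or mislabelled material was not tested. Without both doubted libraries, unchallenged wild-type replicate 4 and challenged knockout replicate 3, each of the 25 member results below kept its call. Challenged knockout replicates 1 and 2, which also held both Xist and Ddx3y, stayed in that fit. The 10 NK cell markers were all present in every group, with a summed level of 8510 to 9600 CPM in unchallenged wild-type, 5030 to 5220 in challenged wild-type, 9020 to 9060 in unchallenged knockout and 6580 to 7010 in challenged knockout libraries. Gzma and Il2rb were the largest parts of that sum in every group, and single markers differed more than the sum. Markers of other cells were present too, none of them at 0 in a whole group. In bulk RNA, more or fewer cells of a type and more or less RNA per cell cannot be told apart.

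In wild-type cells the challenge raised all 5 members, from the modifier itself down to the enzymes that attach and remove it, in a comparison in which 32.4% of all tested genes were higher and 30.9% lower (edgeR, adjusted p below 0.05). Isg15 went from 14.5, 14.3 and 15.4 CPM in the unchallenged libraries to 319, 355 and 355 CPM in the challenged ones. That is a 25-fold rise (log2 4.64 ± 0.12, SE; edgeR adjusted p = 3.25e-13), and no challenged library came near an unchallenged one. Usp18, the ISG15 protease, rose almost as steeply, from 14.8, 16.7 and 17.2 to 252, 281 and 286 CPM (18.1-fold, log2 4.17 ± 0.11, adjusted p = 3.94e-13).

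The enzymes of the relay rose less, and in a graded way. The ligase gene Herc6 went from 59.4, 55.6 and 50 to 300, 293 and 248 CPM (5.48-fold, log2 2.46 ± 0.12, adjusted p = 1.95e-10). The E2 gene Ube2l6 went from 60.8, 61.2 and 53.1 to 174, 176 and 183 CPM (3.27-fold, log2 1.71 ± 0.06, adjusted p = 4.12e-12). The E1 gene Uba7 was already abundant, at 259, 283 and 269 CPM, and reached 343, 401 and 421 CPM (1.54-fold, log2 0.63 ± 0.08, adjusted p = 1.09e-05). In each of the 5 the lowest challenged library lay above the highest unchallenged one, but how often this held over all tested genes was not counted. Markers of other cells moved with the challenge in wild-type too. All 10 neutrophil markers rose (summed level from 76.3 to 82 up to 1680 to 1990 CPM), as did 9 of 10 monocyte and macrophage markers (576 to 619 up to 1500 to 1700 CPM). Of the NK cell markers 8 of 10 fell and 1 rose, with a median of -1.50 on the log2 scale. Klrb1c fell the most, from 956 ± 48.4 to 147 ± 4.8 CPM, and Prf1 rose from 641 ± 77.6 to 904 ± 13.1 CPM. Of the erythroid markers 5 of 6 fell and of the T cell ones 8 of 8. B cell markers rose in 5 of 7 and fell in 1, and dendritic cell markers rose in 3 of 8 and fell in 4. The part of these cells in the rise of the members was not tested.

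Set beside 48 other interferon-stimulated genes, of which 47 rose in wild-type (median log2 2.32, against -0.01 over all tested genes), the members spanned nearly the whole range. Only Ifi204, a DNA sensor, had a larger change than Isg15 (4.89), and 8 of the 48 lay above Usp18. Herc6 lay mid-range, with 23 of the 48 above it. Uba7 was near the bottom, with 46 above it. Sp100 was the one gene of the list that was not called (-0.02, adjusted p = 0.822).

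**Figure D1:**
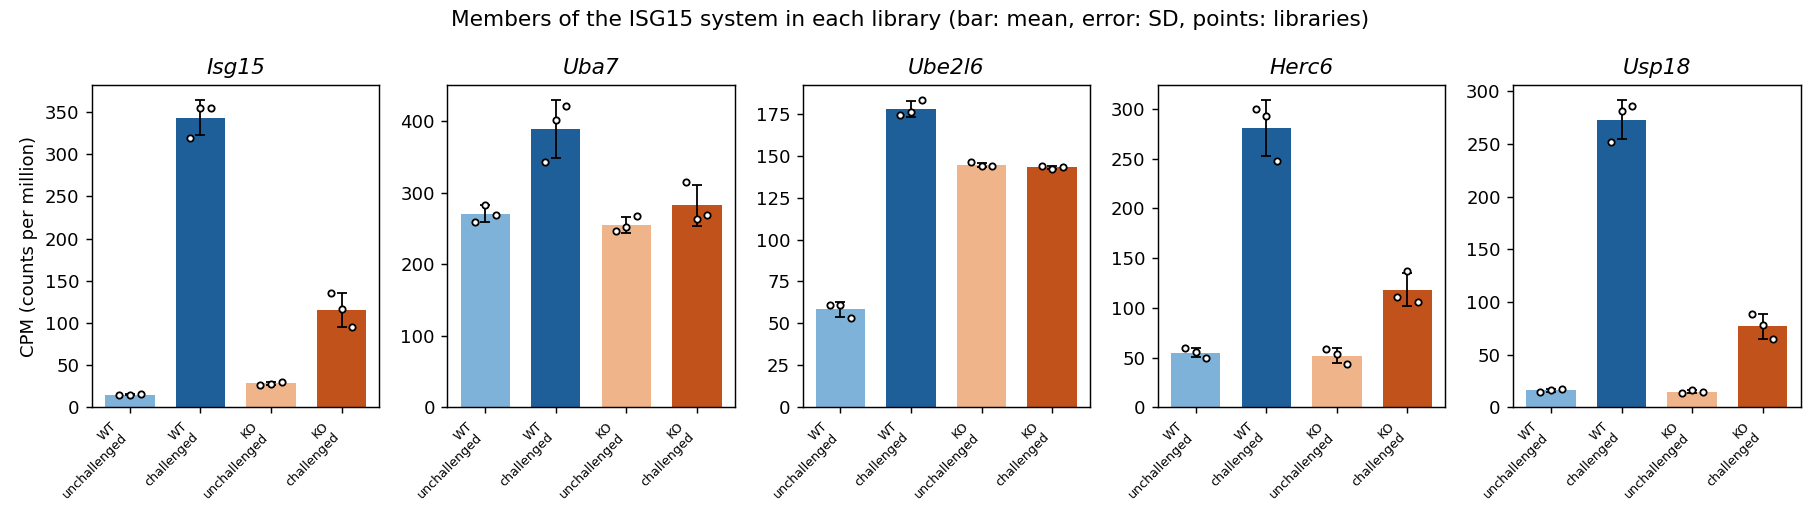
CPM of each member (vertical axis, a separate linear scale from 0 in each panel) in the 4 groups; bars are means, error bars SD and open points the 3 libraries of a group. Ube2l6 in unchallenged knockout libraries (144 to 146 CPM) sits above unchallenged wild-type (53.1 to 61.2 CPM) and level with challenged knockout libraries.

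In the knockout the challenge raised 3 of the 5 members, Isg15, Herc6 and Usp18, while 15.6% of all tested genes were higher and 11.5% lower. Isg15 stood at 26.3, 28.2 and 30.5 CPM without challenge and at 135, 116 and 95.5 CPM after it (4.05-fold, log2 2.02 ± 0.11, adjusted p = 2.84e-09). Usp18 went from 14, 16.1 and 14.8 to 88.2, 77.9 and 64.6 CPM (5.09-fold, log2 2.35 ± 0.11, adjusted p = 6.93e-10). For both genes the lowest challenged value was in replicate 3, one of the doubted libraries. Herc6 went from 58.3, 53.5 and 44.0 to 111, 137 and 106 CPM (2.26-fold, log2 1.17 ± 0.11, adjusted p = 3.51e-06).

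Activation and transfer of ISG15 were the steps whose transcripts were not called in the knockout. Uba7 read 246, 252 and 267 CPM without challenge and 315, 263 and 269 CPM after it, so that the groups overlapped (log2 0.14 ± 0.08, adjusted p = 0.263). Ube2l6 read 146, 144 and 144 CPM against 144, 142 and 143 CPM (log2 -0.03 ± 0.06, adjusted p = 0.77). Among the 48 other interferon-stimulated genes 45 rose in the knockout (median 1.26), and 47 of them had a larger change than Ube2l6. The other uncalled genes of that list were Slfn8, Sp100 and Epsti1, at 0.10, -0.02 and -0.03. In the same comparison 7 of 10 neutrophil markers rose and 3 fell (summed level from 477 to 495 up to 849 to 1300 CPM), 7 of 10 monocyte and macrophage, 7 of 8 T cell and 5 of 7 B cell markers rose, and 10 of 10 NK cell, 5 of 6 erythroid and 3 of 8 dendritic cell markers fell. The NK cell markers had a median of -0.46 on the log2 scale. The part of all these cells in the response of the members was not tested.

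Before any challenge, 2 members were already higher in the knockout than in wild-type: Ube2l6 and Isg15. In this comparison 6.64% of all tested genes were higher and 5.07% lower. Ube2l6 was 2.51-fold higher (log2 1.33 ± 0.06, adjusted p = 3.05e-09), without overlap between the genotypes, and it had the 5th smallest p among the 16694 genes. Isg15 was 1.95-fold higher (log2 0.96 ± 0.11, adjusted p = 3.23e-05), again without overlap. Uba7 (-0.07 ± 0.08, adjusted p = 0.743), Herc6 (-0.06 ± 0.12, adjusted p = 0.828) and Usp18 (-0.10 ± 0.11, adjusted p = 0.714) overlapped between the genotypes and were not called. How many of all tested genes lacked overlap here was not counted.

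The other interferon-stimulated genes did not share that difference as a group. Of the 48, 3 were higher in the unchallenged knockout and 7 lower, with a median of -0.11 (3 and 8 without both doubted libraries). The higher ones were Rsad2, which encodes the antiviral enzyme viperin (32.4 ± 4.09 against 94.5 ± 6.65 CPM, SD, n = 3; log2 1.57 ± 0.10, edgeR adjusted p = 5.87e-08), Ifi204 (0.79 ± 0.14) and Ifitm3, an inhibitor of virus entry (0.55 ± 0.12). Rsad2 alone lay above Ube2l6 and Isg15. Lower genes included Oasl1 (-0.54 ± 0.12) and Ddx60 (-0.60, adjusted p = 0.0013).

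Markers of other cells moved in the same comparison. Of 10 neutrophil markers 9 were higher in unchallenged knockout libraries, with a summed level of 477 to 495 CPM against 76.3 to 82.0 CPM in wild-type. All 6 erythroid markers were higher, with sums of 24200 to 26900 against 7560 to 8770 CPM, and 5 of 10 monocyte and macrophage markers were higher, with sums of 744 to 777 against 576 to 619 CPM. Of 8 dendritic cell markers 6 were higher (929 to 1000 against 835 to 901 CPM), whereas 6 of 7 B cell markers (961 to 983 against 1280 to 1440 CPM) and 4 of 8 T cell markers (228 to 232 against 292 to 317 CPM) were lower. The dendritic cell markers had a median of 0.67 on the log2 scale, and most of their sum was Itgax (819 ± 41.2 against 802 ± 32.5 CPM). Of the 10 NK cell markers 0 were called by edgeR (1 at an unadjusted p below 0.05), with 1 by DESeq2 and 0 by limma-voom. The part of these markers in the Isg15 and Ube2l6 differences was not tested.

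After challenge all 5 members were lower in the knockout than in wild-type, where 25.9% of all tested genes were lower and 22.7% higher. The members' libraries did not overlap between the genotypes, and the share of all genes so separated was not counted. Usp18 was 3.79-fold lower (log2 -1.92 ± 0.10, adjusted p = 9.44e-10), Isg15 3.17-fold (-1.67 ± 0.10, adjusted p = 5.22e-09) and Herc6 2.54-fold (-1.35 ± 0.11, adjusted p = 2.07e-07). Uba7 was 1.47-fold lower (-0.56 ± 0.08, adjusted p = 6.76e-05) and Ube2l6 1.33-fold (-0.41 ± 0.06, adjusted p = 3.79e-05). Among the 48 other interferon-stimulated genes 47 were lower, with a median of -1.15. Only Oasl1 (-1.93) lay below Usp18, whereas 45 lay below Ube2l6.

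The response to challenge itself differed between the genotypes for all 5 members, as tested by the interaction term of the same model. It was smaller in the knockout in each case, in a test that called 18.5% of all genes lower and 16.7% higher. The difference was largest for Isg15 (log2 -2.63 ± 0.15, adjusted p = 1.23e-08), below that of each of the 48 other interferon-stimulated genes (43 called lower, median -1.02; 42 without both doubted libraries). It was -1.83 ± 0.15 for Usp18 (adjusted p = 3.19e-07), -1.74 ± 0.08 for Ube2l6 (adjusted p = 4.06e-09) and -1.28 ± 0.16 for Herc6 (adjusted p = 2.56e-05). Uba7 had the smallest difference (-0.49 ± 0.12, adjusted p = 0.00499). For Isg15 and Ube2l6 the difference holds both a higher start and a lower end in the knockout, whereas the starts of Usp18, Herc6 and Uba7 were not called. The comparisons share groups, so their values are not independent of each other.

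In the challenged libraries the neutrophil marker sum was 1680 to 1990 CPM in wild-type and 849 to 1300 CPM in the knockout, and the monocyte and macrophage sum 1500 to 1700 against 937 to 1240 CPM. Of the 10 neutrophil markers 8 were lower in the challenged knockout and 2 higher, and of the 10 monocyte and macrophage markers 8 and 1. T cell markers were higher in the knockout in 8 of 8 (284 to 320 against 181 to 187 CPM) and erythroid in 6 of 6 (13400 to 16100 against 1160 to 1560 CPM). NK cell markers were higher in 6 of 10 and lower in 1 (median log2 1.07), with Klrb1c at 604 ± 30.4 against 147 ± 4.8 CPM. Dendritic cell markers were higher in 5 of 8 and lower in 2 (534 to 642 against 259 to 280 CPM). Most of the dendritic cell sum was Itgax (493 ± 48.6 against 158 ± 7.92 CPM). B cell markers were lower in 4 of 7 and higher in 1 (1340 to 1370 against 1450 to 1530 CPM). All 10 neutrophil markers and 8 of 10 monocyte and macrophage markers had a smaller response in the knockout by the interaction test. Challenged knockout replicate 3 had the lowest value of both sums, and of Isg15 and Usp18, in its group. The part of these cells in the members' responses was not tested.

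**Figure D2:**
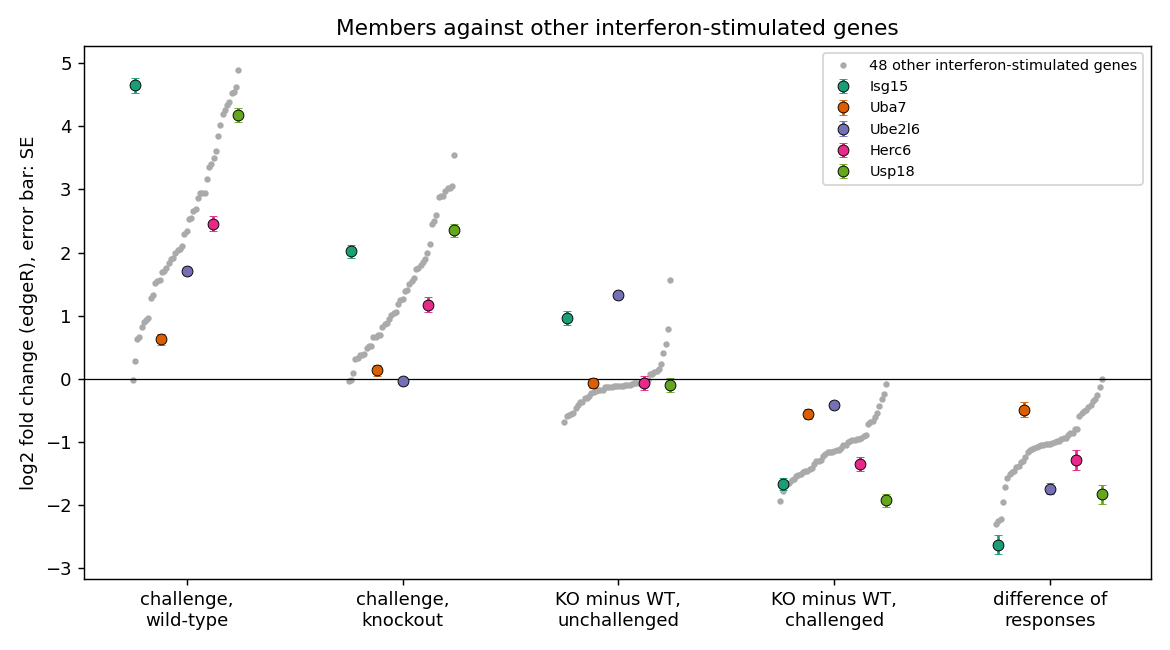
Log2 fold change by edgeR (vertical axis; error bars on members are SE) for the 5 members, in colour, and 48 other interferon-stimulated genes, grey points in order of size, in each comparison. Without challenge Ube2l6 (1.33) and Isg15 (0.96) stand above all grey points but one, and in the difference of responses Isg15 (-2.63) stands below all of them.

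Since the enzymes act on ISG15, each member's counts were also set against those of Isg15 within a library. In unchallenged wild-type cells there were 17.4 to 19.8 Uba7 counts per Isg15 count, and 1.08 to 1.19 after challenge. In the knockout the ratio went from between 8.77 and 9.37 to between 2.28 and 2.81. These ratios are not corrected for length and serve to compare libraries, not to rank genes.

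The ratio of the protease to its substrate moved in opposite directions. Usp18 per Isg15 went from 1.02 to 1.17 without challenge to 0.79 to 0.807 after it in wild-type. In the knockout it started at 0.486 to 0.573 and ended at 0.652 to 0.676. Ube2l6 per Isg15 fell outside its unchallenged range in both genotypes, from 3.44 to 4.29 to 0.496 to 0.545 in wild-type and from 4.74 to 5.56 to 1.06 to 1.49 in the knockout. Herc6 per Isg15 read 3.24 to 4.11 and 0.70 to 0.942 in wild-type, and 1.44 to 2.22 and 0.821 to 1.19 in the knockout.

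These ratios were compared by 16 exact permutation tests, two-sided, over 3 against 3 libraries, where 0.1 is the smallest p possible. Of the 16, 15 gave that smallest p, each with groups that did not overlap (Benjamini-Hochberg adjusted p = 0.1067). Herc6 per Isg15 overlapped between the genotypes after challenge (exact p = 0.3). The design cannot take these tests below 0.05. Isg15 itself did not overlap between the groups in any of these comparisons, so a gene that stayed level would also give separated ratios. The count of separated ratios therefore says little about the other members.

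**Figure D3:**
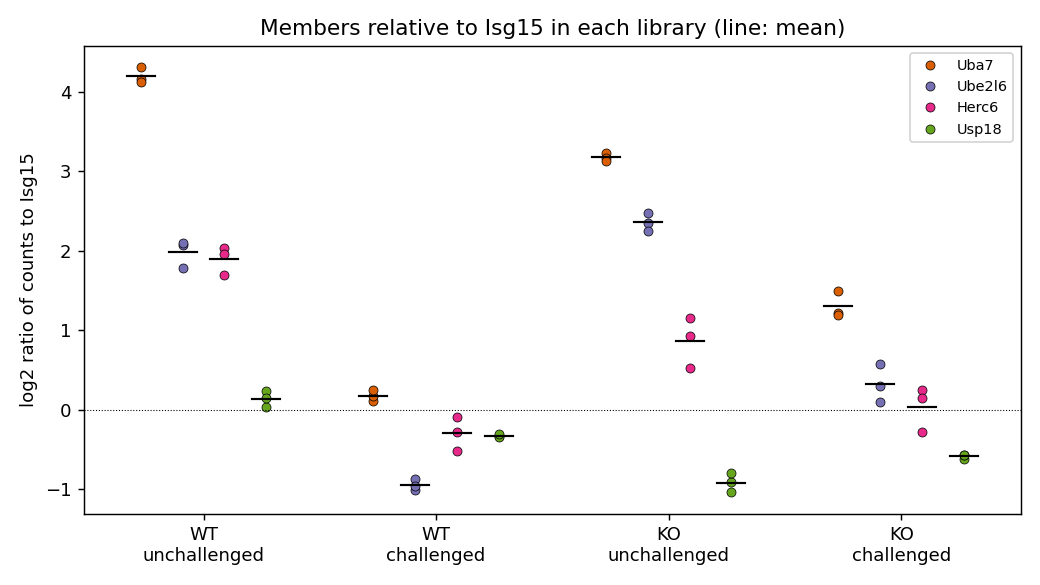
Log2 ratio of each member's counts to Isg15 counts in the same library (vertical axis) by group; points are the 3 libraries and short lines their mean. With challenge Uba7 drops from a mean of 4.2 to 0.18 in wild-type, the most of the 4, and Ube2l6 from 2.36 to 0.32 in the knockout, the most there (Uba7 from 3.17 to 1.3). Usp18 drops in wild-type (0.14 to -0.33) but climbs in the knockout (-0.92 to -0.58).

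Levels of different genes can be compared only per length, here CPM per kb of the mean annotated transcript. In unchallenged wild-type cells the order was Uba7 (147 ± 6.47 CPM per kb, SD, n = 3), Ube2l6 (64.9 ± 5.07), Herc6 (27.7 ± 2.37), Isg15 (19.5 ± 0.832) and Usp18 (18.3 ± 1.43), and the ranges of the last pair overlapped. After challenge Isg15 led at 453 ± 27.6, followed by Usp18 at 308 ± 20.5, then Uba7 at 211 ± 22.0 and Ube2l6 at 197 ± 5.21, which overlapped, and Herc6 at 141 ± 14.1.

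In unchallenged knockout cells Ube2l6 came first (161 ± 1.06), ahead of Uba7 (138 ± 5.84), Isg15 (37.4 ± 2.77), Herc6 (26.1 ± 3.67) and Usp18 (16.9 ± 1.25). In challenged knockout cells Ube2l6 (159 ± 1.02), Isg15 (153 ± 26.3) and Uba7 (153 ± 15.3) overlapped, above Usp18 (86.9 ± 13.4) and Herc6 (59.4 ± 8.40). The order depends on the length chosen. Isg15 has 1 annotated transcript, and the other members have several, so the longest transcript lowered their values alone. By that length Isg15 ranked above Herc6 in unchallenged wild-type cells (19.5 ± 0.832 against 11.5 ± 0.989 CPM per kb). In challenged knockout cells it stood clear above Ube2l6 and Uba7 (126 to 179 against 91.1 to 92.3 and 72.7 to 86.9 CPM per kb).

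The closest relatives of the members did not all follow them. Herc1, Herc2, Herc3 and Herc4, the other HERC-family ligases, fell in wild-type (4 of 4), Herc3 from 120 ± 5.79 to 60.1 ± 1.16 CPM (log2 -0.90 ± 0.06, edgeR adjusted p = 2.89e-09), and 1 of 4, Herc3, fell in the knockout (-0.28 ± 0.06), where 3 of 4 fell under upper-quartile scaling and by DESeq2. After challenge all 4 were higher in the knockout, with Herc3 at 0.60 ± 0.06. Over all tested genes 30.9% fell in wild-type, 11.5% fell in the knockout and 22.7% were higher in the challenged knockout. Trim25, an interferon-induced ubiquitin ligase that can also attach ISG15, rose in both genotypes (1.29 ± 0.07 and 0.49 ± 0.07), and less so in the knockout (difference -0.80 ± 0.10, adjusted p = 2.38e-05). Usp14, a protease that can also act on ISG15, rose by 0.47 ± 0.12 and 0.39 ± 0.12, the second a call lost without both doubted libraries (0.35, edgeR adjusted p = 0.097). Usp13, another such protease, had 3 counts in all and was not tested.

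Of 9 E1 enzyme genes for other modifiers, 5 rose and 1 fell in wild-type, and 2 rose in the knockout. Between the unchallenged genotypes 0 were called by edgeR (1 at an unadjusted p below 0.05), 0 by DESeq2 and 0 by limma-voom. Uba1, the main ubiquitin E1, rose by 0.42 ± 0.07 in wild-type. Sae1 and Uba2, the subunits of the SUMO E1, rose by 0.55 ± 0.07 and 0.37 ± 0.06. Under upper-quartile scaling and under library totals alone, which shift the median of all genes by -0.11 and -0.10 in that comparison, 3 of the 9 rose and 1 fell. Of 32 other E2 genes, 13 rose and 5 fell in wild-type, and 6 rose and 4 fell in the knockout. Over all tested genes 32.4% rose and 30.9% fell in wild-type, and 15.6% rose and 11.5% fell in the knockout. Without both doubted libraries the knockout counts were 3 rising and 2 falling for these E2 genes and 1 rising for the E1 genes, and upper-quartile scaling gave 3 rising and 4 falling E2 genes. Ube2l3, a close relative of Ube2l6, rose by 0.56 ± 0.05 and 0.24 ± 0.05 and was not called between the unchallenged genotypes (-0.10 ± 0.05, adjusted p = 0.309).

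Among those 32 E2 genes, 3 were higher in the unchallenged knockout and 1 was lower. Over all tested genes 6.64% were higher and 5.07% lower, so the E2 counts stand near those shares. Ube2c, an E2 of the anaphase-promoting complex that drives exit from mitosis, stood at 13.8 ± 1.47 CPM in wild-type and 32.1 ± 1.15 CPM in the knockout (log2 1.24 ± 0.10, edgeR adjusted p = 5.38e-07). Ube2s, which works with Ube2c, was higher by 0.40 ± 0.08, and Ube2o, a ubiquitin enzyme of maturing red cells, by 1.02 ± 0.11. Atg10, an E2-like enzyme of autophagy, was lower (-0.74 ± 0.19). After challenge 14 of the 32 were lower in the knockout and 2 higher, Ube2o by 1.37 ± 0.11, where 25.9% of all tested genes were lower and 22.7% higher. The E2 counts were 10 lower and 5 higher under upper-quartile scaling and 9 lower and 5 higher under library totals.

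Of 13 other ubiquitin-like modifier genes, 9 rose in wild-type (7 rose and 1 fell under upper-quartile scaling and library totals) and 2 in the knockout. The 2 stand near the 15.6% of all tested genes that rose in the knockout, while 32.4% rose in wild-type. Between the unchallenged genotypes 0 were called by edgeR (0 at an unadjusted p below 0.05), 0 by DESeq2 and 0 by limma-voom. Ubd, which encodes FAT10, a modifier induced by interferon gamma and TNF, rose the most, from 0.782 ± 0.154 to 54.4 ± 1.54 CPM in wild-type (log2 6.21 ± 0.22, edgeR adjusted p = 4.11e-12) and from 0.458 ± 0.234 to 21.0 ± 4.66 CPM in the knockout (5.51 ± 0.24). Its difference of responses was not called (-0.70 ± 0.45, adjusted p = 0.249). Ubb, a polyubiquitin gene, rose by 0.51 ± 0.08 in wild-type.

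Genes that relay interferon to the nucleus moved in both directions. Of 10, 5 rose and 4 fell in wild-type, and 4 rose and 5 fell in the knockout. All tested genes moved both ways too, with 32.4% rising and 30.9% falling in wild-type and 15.6% and 11.5% in the knockout. The type I receptor subunits Ifnar1 and Ifnar2 fell in wild-type (-0.34 ± 0.05 and -0.32 ± 0.06), as did the kinase Jak1 (-1.07 ± 0.06), while Ifngr2, a chain of the interferon gamma receptor, rose by 1.5 ± 0.08. Stat2 and Irf9, which act at the ISRE, rose: Stat2 from 94.6 ± 3.20 to 418 ± 12.7 CPM (log2 2.25 ± 0.06, edgeR adjusted p = 4.85e-13) and Irf9 by 0.71 ± 0.06. In the knockout they rose by 1.01 ± 0.06 and 0.31 ± 0.06, and their differences of responses were -1.24 ± 0.09 and -0.40 ± 0.09. Neither was called between the unchallenged genotypes (-0.04 ± 0.06, adjusted p = 0.799, and -0.13 ± 0.06, adjusted p = 0.266).

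Among 6 interferon regulatory factor genes, 5 rose and 1 fell in wild-type and 3 rose in the knockout. Shares over all tested genes were 32.4% rising and 30.9% falling in wild-type and 15.6% rising in the knockout. Irf7, the master factor of type I interferon production, rose from 108 ± 5 to 686 ± 30.4 CPM (log2 2.77 ± 0.10) in wild-type and by 1.42 ± 0.10 in the knockout. Irf1, which responds to interferon gamma, rose by 1.3 ± 0.07 and 0.35 ± 0.07. Between the unchallenged genotypes 0 of the 6 were called by edgeR (1 at an unadjusted p below 0.05), 0 by DESeq2 and 0 by limma-voom.

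Of 21 interferon genes, Ifng alone had enough counts to be tested. It stood at 95.4 ± 14.7 and 275 ± 7.80 CPM in unchallenged and challenged wild-type libraries (log2 1.63 ± 0.13, edgeR adjusted p = 1.63e-07). In the knockout it stood at 72.9 ± 1.99 and 113 ± 23.3 CPM (0.62 ± 0.13, adjusted p = 0.00357). Ifnb1, the type I interferon beta, had 0 counts without challenge in either genotype, which allows up to 0.0521 CPM in wild-type and 0.0501 CPM in the knockout (3 counts over the group, counting error only), and 17 counts in challenged wild-type and 8 in challenged knockout libraries.

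The receptor side of extracellular ISG15 moved down with challenge. Itgal and Itgb2, the chains of LFA-1, fell by 0.76 and 0.98 on the log2 scale in wild-type and by 0.38 and 0.38 in the knockout. Itgal went from 1660 ± 72.5 to 909 ± 52.3 CPM in wild-type. NK cell markers fell in the same comparisons, 8 of 10 in wild-type and 10 of 10 in the knockout, and their part in the Itgal and Itgb2 change was not tested. Among 11 genes whose proteins have been described as carrying ISG15, 9 rose and 1 fell in wild-type, and 7 rose in the knockout. Of all tested genes 32.4% rose and 30.9% fell in wild-type, and 15.6% rose in the knockout. Mx1, an antiviral GTPase, rose by 2.54 ± 0.11 and 1.04 ± 0.10, and Eif2ak2, the kinase PKR, by 1.76 ± 0.07 and 0.83 ± 0.07. Mx1, Eif2ak2 and Ifih1 are also in the list of other interferon-stimulated genes.

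Genes of like pattern were sought over the 12 libraries among 11203 genes with at least 5 CPM on average, by the root mean square difference of centred log2(CPM + 1) values. The points share libraries and groups, so the values are a description. The closest to Isg15 was Il1b, the cytokine interleukin 1 beta of myeloid cells (difference 0.169, r = 0.9953), at 7.72 to 9.09 CPM and 159 to 196 CPM in unchallenged and challenged wild-type libraries and 15.1 to 15.5 and 62.5 to 85.5 CPM in the knockout. The next were Mrgpra2b (0.244) and Ifitm3 (0.256). The 1 CPM added before the log shrinks changes of genes near 0 CPM, so a close profile can hide an unlike fold change. By edgeR the wild-type rise was 8.19 on the log2 scale for Mrgpra2b, 4.51 for Il1b and 4.03 for Ifitm3, against 4.64 for Isg15. Between the unchallenged genotypes they stood at 3.57, 0.92 and 0.55, against 0.96 for Isg15. The closest to Usp18 were Il10, the anti-inflammatory cytokine gene (0.158), Gbp2, an interferon-induced GTPase (0.168), and Oasl1 (0.188). By edgeR Il10 rose by 6.27 in wild-type and 4.42 in the knockout, Gbp2 by 4.08 and 2.63 and Oasl1 by 3.84 and 2.45. Usp18 rose by 4.17 and 2.35. Among the members themselves, Isg15 and Usp18 were nearest each other (0.373).

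The closest to Ube2l6 was Ube2c (difference 0.106, r = 0.9853), followed by the amino acid transporter Slc7a8 (0.159) and the cell cycle factor E2f8 (0.159). The erythroid marker sum, mostly Hba-a1 and Hbb-bs, was lowest in challenged wild-type libraries, at 1160 to 1560 CPM, and 5 of its 6 markers fell with challenge in wild-type. Klf1, also on that list, had its lowest mean in unchallenged wild-type libraries (15.2 ± 2.27 CPM), as did Ube2l6 (58.4 ± 4.56 CPM). In the knockout Klf1 stood at 30.8 ± 1.79 CPM without challenge and 28.3 ± 7.75 CPM after it. The part of erythroid cells in the Ube2l6 profile was not tested. For Herc6 the closest were C130026I21Rik (0.0896), Hif1a, the hypoxia-inducible factor (0.113), and Dram1 (0.117). For Uba7 they were Ptpn1, a tyrosine phosphatase that acts on JAK kinases (0.0445), Slc25a22 (0.0449) and Slc39a1 (0.0474).

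**Figure D4:**
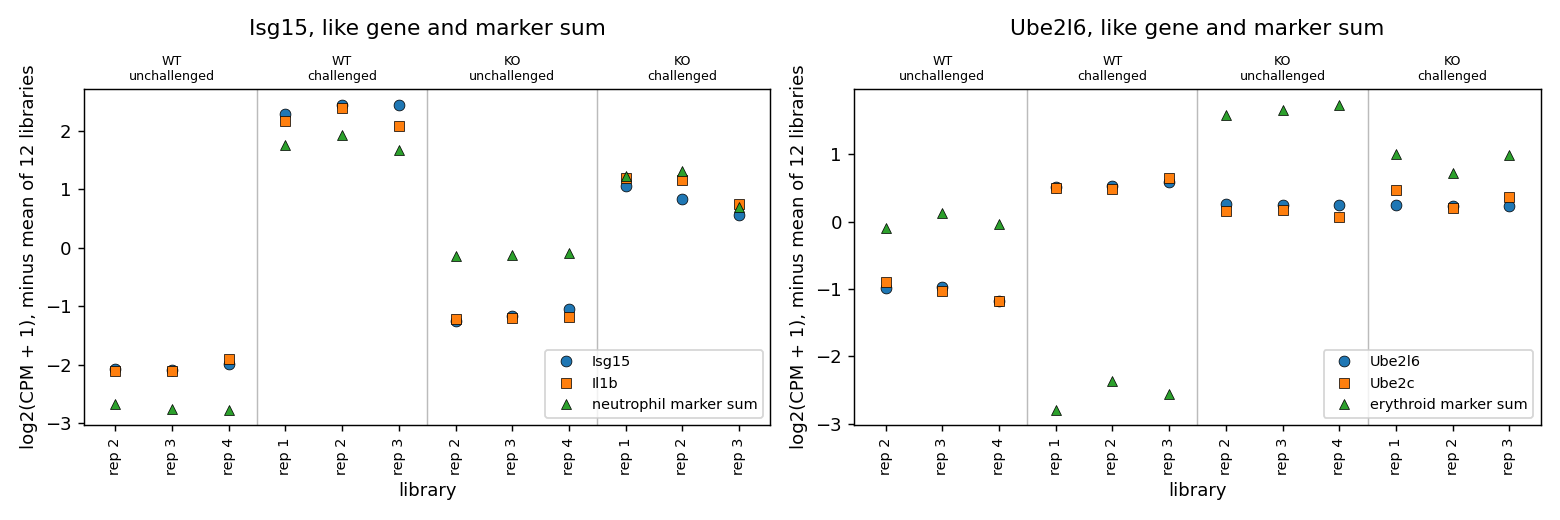
Log2(CPM + 1) minus its mean over the 12 libraries (vertical axis), library by library, for Isg15 with Il1b and the neutrophil marker sum (left) and for Ube2l6 with Ube2c and the erythroid marker sum (right). Il1b and Ube2c lie close to their member in every group. The erythroid sum, mostly Hba-a1 and Hbb-bs, is lowest in challenged wild-type libraries. The mean of its marker Klf1, not plotted alone, is lowest in unchallenged wild-type libraries.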

How the data were processed

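PolyA RNA of NK cells from 12 samples, 3 in each of 4 groups by genotype and challenge, was sequenced after Trizol extraction and Illumina TruSeq RNA preparation, per the labels' protocols. The submitters' processing notes name GRCm38, RSEM 1.3.0, Bowtie2 2.2.8, Trim Galore 0.4.1 and bcl2fastq. RSEM gives estimated counts; the counts the authors deposited are whole numbers per gene and library, not normalized, and their rounding, annotation release and strand were not given in the sources used here.

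In R 4.3.3, edgeR 4.0.16 tested genes by its robust quasi-likelihood test with TMM scaling, in a single model of the 4 groups over the 12 libraries. The filter filterByExpr kept 16694 genes. In each of 5 comparisons, Benjamini-Hochberg adjustment ran over these genes, and calls were made below an adjusted p of 0.05. Errors beside log2 fold changes are SE; levels are CPM by library total with SD. A count was worth 0.0423 to 0.0567 CPM. Libraries of a group differed by 3.51 to 26.9 times the counting noise, so none was a copy. The fit was also run on simulated counts with the same spread for every gene and changes in challenged wild-type libraries only. That setting is simpler than these data, so the run does not measure the error of the fit here.

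The members and the 12 pathway and 7 marker lists were chosen with earlier results of these data known. Besides the members, the rule named up to 4 called genes of each pathway list with the smallest p in the wild-type challenge, a fixed set of relatives and signalling genes, and for each member the 3 genes of most like profile. Some genes the rule names are not reported here. Ifi204, Rsad2, Ifitm3, Oasl1, Ddx60, Sp100, Slfn8, Epsti1, Ube2o, Atg10 and Usp13, where not named by that rule, and Gm26532, Xist and Ddx3y were chosen after the values were seen, as were the short ISRE core, the neighbouring genes and the microRNA sites. Sumo3 is listed in 2 rows, of which the more abundant was used. Positions, lengths and 3' UTRs are from GENCODE vM21. Alternatives were other scalings, no filter, DESeq2 1.42.0, limma 3.58.1, libraries left out and replicate blocks. Same-numbered libraries of different groups correlated at -0.318 to 0.249 in their residuals, and differently numbered ones at -0.263 to 0.32, so the numbers were not used for pairing. Exact tests used scipy 1.17.1.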

Additional observations from a re-analysis of the deposited data

Results flagged for a closer look

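The response to challenge differed between the genotypes, by the interaction term of the edgeR model (adjusted p below 0.05), for every member and for further genes named above. Values are the response in the knockout minus that in wild-type, on the log2 scale. The members stood at -2.63 (Isg15), -1.83 (Usp18), -1.74 (Ube2l6), -1.28 (Herc6) and -0.49 (Uba7).

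Among relatives of the conjugation enzymes, the difference was -1.53 for Ube2c, -0.95 for Ube2s, -0.80 for Trim25, -0.69 for Ube2m, -0.48 for Ubb, -0.36 for Uba1 and -0.32 for Ube2l3. It was positive for Herc3 (0.62), Ube2h (0.43), Atg7 (0.29) and Herc2 (0.24), which had fallen in wild-type. Without both doubted libraries Herc2 (0.25, edgeR adjusted p = 0.0677) and Atg7 (0.31, adjusted p = 0.0896) were not called, nor was Atg7 by DESeq2 (0.27, adjusted p = 0.0622).

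In the interferon relay and among regulatory factors it was -1.36 for Irf7, -1.24 for Stat2, -1.23 for Irf8, -1.04 for Ifngr2, -1.01 for Ifng, -0.96 for Irf1, -0.85 for Irf5 and -0.40 for Irf9, and 0.72 for Jak1. Other targets stood at -1.57 (Oasl2), -1.50 (Mx1), -1.47 (Oas2), -1.23 (Ifit3), -1.08 (Ifit3b), -0.93 (Eif2ak2) and -0.85 (Ifih1). The LFA-1 chains stood at 0.38 (Itgal) and 0.61 (Itgb2).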

How the results depend on the processing

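Of 545 values of the members under other settings, 544 kept their direction and their side of the threshold. The exception was Herc6 between the unchallenged genotypes, which is not called and turned from -0.06 to 0.041 without unchallenged knockout replicate 4 (range over libraries left out, -0.15 to 0.041). Counts over all genes moved more: 1915 genes fell with challenge in the knockout and 1185 under the replicate block by the short number of the title, and 846 were lower in the unchallenged knockout and 504 to 971 with a library left out. The lowest of these, 504, was without unchallenged wild-type replicate 3. It was 550 without unchallenged wild-type replicate 2 and 548 without unchallenged knockout replicate 3. The cause was not tested. The replicate block changed no member's call. Upper-quartile scaling and library totals moved the median of all genes by -0.11 and -0.10 in the wild-type challenge, and totals by 0.11 in the difference of responses. Counts without molecular identifiers cover counting error only, and Ifnb1 and Usp13 lay below what the depth can test.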

Other observations

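The tested genes on each side of Ube2l6 were read as well, a choice made after the values were seen. Ypel4 and Slc43a1, whose starts lie 64.8 and 40.0 kb from that of Ube2l6, were higher in the unchallenged knockout too (log2 2.41, edgeR adjusted p = 2.29e-06, and 1.71, adjusted p = 4.86e-07). Between them and Ube2l6 lie Serping1, the C1 inhibitor gene (0.60, adjusted p = 0.0801), and the mitochondrial import gene Timm10 (0.03, adjusted p = 0.943), which were not called. With challenge in wild-type Ypel4 fell by 4.00 on the log2 scale, Slc43a1 was not called (-0.08, adjusted p = 0.633) and Serping1 rose by 3.86. Between the challenged genotypes Ypel4 (6.03) and Slc43a1 (1.49) were higher in the knockout, whereas Ube2l6 (-0.41) and Serping1 (-1.72) were lower. Erythroid markers were higher in the knockout in both genotype comparisons, 6 of 6 each time. Their part in the Ypel4 and Slc43a1 values was not tested.

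Next to Isg15, AW011738, whose start lies 3.88 kb away, rose by 2.06 in wild-type (adjusted p = 1.29e-09) and by 0.66 in the knockout (adjusted p = 0.0012), and Agrn rose by 1.10 in wild-type. Neither was called between the unchallenged genotypes (0.03 and 0.05).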
